A study of Homo sapiens with 2 samples.

Results

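The genes described here are 32 genes of cholesterol and fatty acid synthesis, taken by their symbols from the 18930 genes of the deposited table, and all 32 were found there with reads in both libraries. They were chosen for their place in the pathway: 7 genes of the early mevalonate steps, 10 of the committed sterol steps, 5 regulators of the SREBP system, 7 of fatty acid synthesis, the sterol carrier STARD4 and the 2 LXR genes. The data were bulk RNA-sequencing of A375, named in the labels as a melanoma line, with 1 library labelled DR (resistant to dacarbazine, DTIC, a drug that alkylates DNA) and 1 library labelled WT (wild type). The labels give 105 days of drug, spelled DITC, for both libraries, whereas the paper describes a wild-type control. DR cells were the viable cells left after the last passage in rising drug, so a library stands for a culture and not for a clone. The 2 count columns carry names that differ in 1 character and were assigned by the samples' descriptions, and every direction given rests on that assignment.

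Cells build cholesterol from acetyl-CoA through mevalonate, farnesyl diphosphate and squalene, and they build fatty acids from the same acetyl-CoA through malonyl-CoA. Most enzymes of both routes are transcribed under the SREBP factors, which SCAP carries from the endoplasmic reticulum to the Golgi for cleavage when membrane sterol is low, and which the INSIG proteins hold back when it is high. LXR receptors sense oxidized sterols and switch on sterol export together with SREBF1 and lipogenic genes. In dividing tumour cells both routes supply new membrane.

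The estimated reads summed to 54878355 in the DR-labelled library and 35294670 in the WT-labelled library, and 16210 genes had at least 10 reads over both. There was no replicate. Each interval below is a 95% Clopper-Pearson interval that covers the counting of reads alone, and each difference describes these 2 libraries rather than the conditions. Levels of 1 gene across libraries are given in CPM, the reads of a gene relative to the library size after scaling by edgeR's TMM method, and levels across genes in TPM, reads divided by gene length and scaled to the same total in each library. Most of the defining markers went against the labelled cell type. Of 9 melanocytic markers with counts, 2 lay above the median of all genes in the DR-labelled library and 3 in the WT-labelled library. MITF (34.6 and 34.7 CPM in the libraries labelled DR and WT) and RAB27A (78.9 and 63.5 CPM) lay above it in both. SOX10, a transcription factor of the melanocyte lineage, had 3 reads and 0 reads. Of 12 plasma cell markers, 11 lay above that median in each library. The plasma cell markers summed to 12978 CPM in the DR-labelled library and 11052 CPM in the WT-labelled library, against 141.3 and 129.2 CPM for the melanocytic markers. The samples are therefore named by their labels. No marker of adipocytes or hepatocytes, cells known for lipid synthesis, lay above the median. Whether any of these cells had a part in the values below was not tested, and in bulk RNA fewer cells of a type and less RNA per cell cannot be told apart.

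The synthesis genes were abundant in both libraries and differed little between them. FADS2, a desaturase of polyunsaturated fatty acids, was the only member past 2-fold, at 2.19-fold higher in the DR-labelled library. PMVK, a kinase of the mevalonate route, was 1.97-fold lower there, just short of that size. The 32 genes together held 3118 TPM in the DR-labelled library and 3076 TPM in the WT-labelled library, a ratio of 1.01. Differences are given as log2 fold changes, the DR-labelled library over the WT-labelled library, on the scale of log2 (CPM + 0.5). The added 0.5 CPM, a pseudocount, enters the bounds of each interval too and draws those of low genes towards 0. A gene was called when its log2 fold change was at least 1 in size.

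By this rule 1 of 32 members (3.13%) was called, against 11.6% of all genes with at least 10 reads. In the upward direction it was 1 member, against 7.48% of all genes, and in the downward direction 0 members, against 4.16%. A smaller size of 0.5 on the log2 scale was passed by 4 members (12.5%), against 31.6% of all genes. This count was 6 with library totals (31.6% of all genes), where FADS1 and STARD4 came to 0.51 each. It was 3 with a pseudocount of 5 CPM (18.0% of all genes), where TM7SF2 came to 0.47. With that pseudocount 1 of 32 members passed 2-fold, against 4.66% of all genes, so that the gap at 2-fold was narrower. Of the 4 members past 0.5 in the main setting, 3 were higher (FADS2, INSIG2 and TM7SF2, against 17.7% of all genes). The other 1 was lower (PMVK, against 13.9% of all genes). The median size of the log2 fold change was 0.15 over the members and 0.31 over all genes. Since low genes vary more, the shares were also taken, after the values were seen, over the 11471 genes whose mean was 4 CPM or more, a level that all 32 members exceed, and there 9.90% of genes passed 2-fold and 29.3% passed 0.5. That set is not matched to the members in level, since 28 of the 32 lay above the median of all genes by TPM in both libraries. Whether the smaller differences of the members go with their level was not tested. The signed medians were 0.06 for the members and 0.01 for all genes. In the plot of all genes the members lie in the central band over most of its width.

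**Figure D1:**
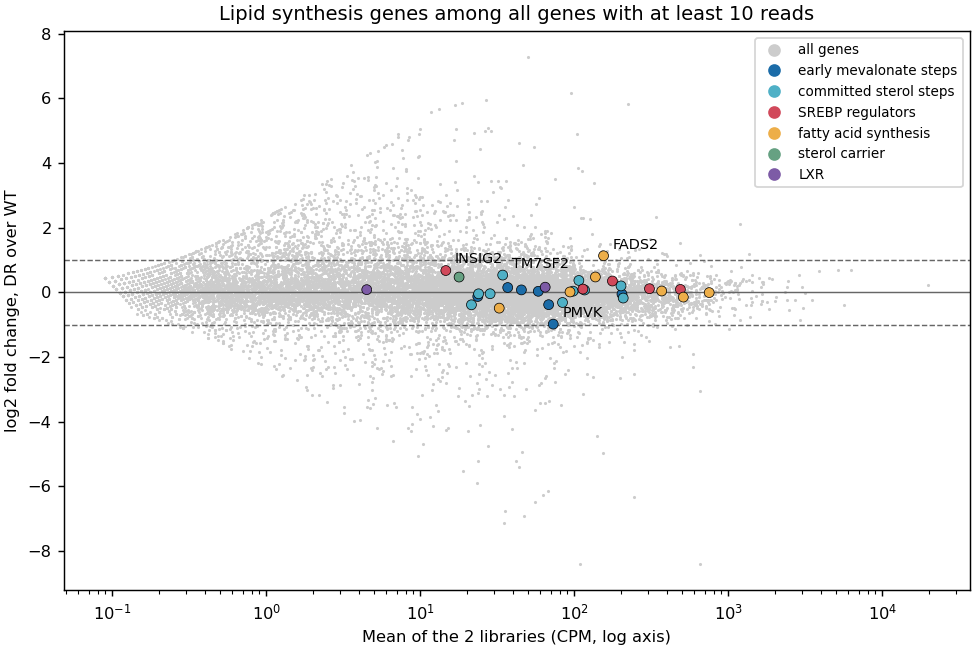
Each point is 1 gene with at least 10 reads, with its mean level over both libraries in CPM on a log axis against its log2 fold change, DR over WT. Coloured points are the 32 members by class, dashed lines mark 2-fold in either direction, and the named points are the 4 members past 0.5 in size, of which FADS2 at 1.13 lies above the upper line.

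Within the members, 15 intervals lay above 0 (46.9%, against 35.8% of all genes), 9 lay below 0 (28.1%, against 34.6%) and 8 spanned it (25.0%, against 29.6%). Read counts of the members ran from 257 to 41580 in the DR-labelled library and from 151 to 26190 in the WT-labelled library, and the width of the intervals ran from 0.04 to 0.53 on the log2 scale. The estimated counts were fractional for 16 of the 32 members, among them FADS2 and FADS1, against 53.7% of all genes. Fractional counts can arise where reads are shared out between genes or transcripts, and how the authors' counting did so is not given in the sources used here.

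**Figure D2:**
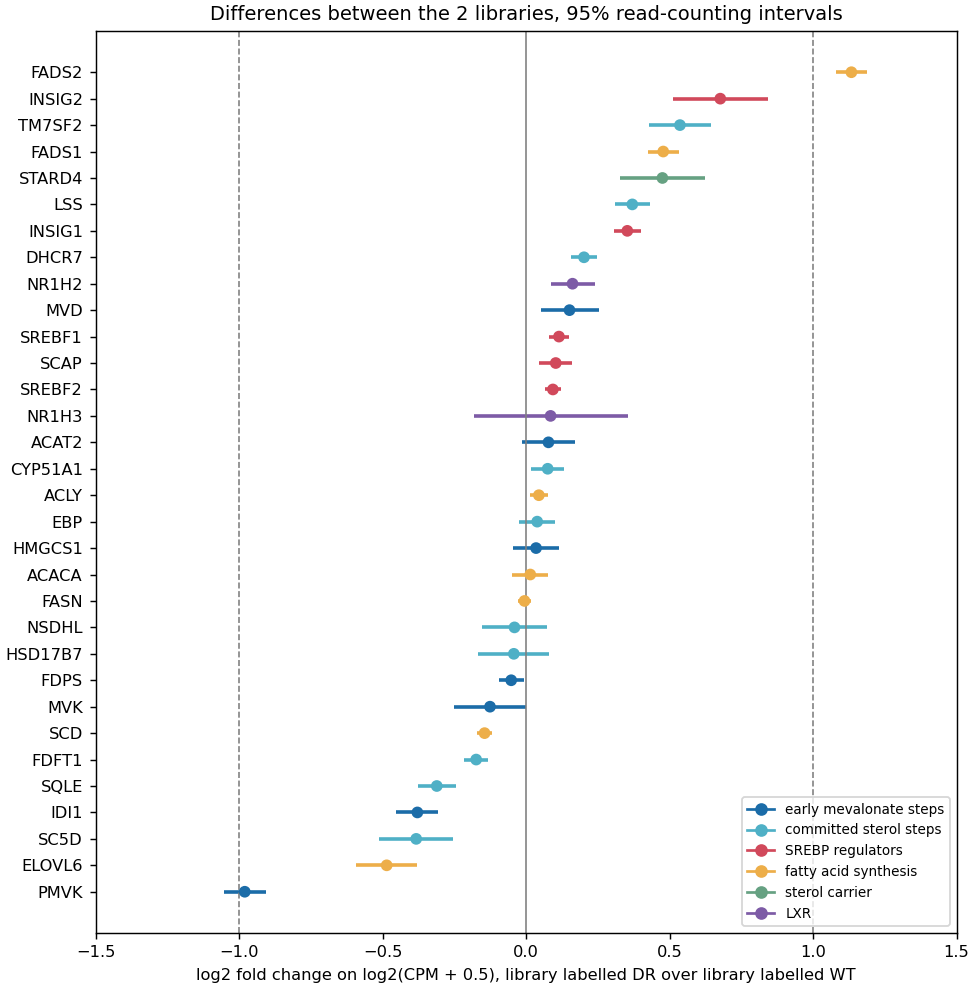
Points are the log2 fold changes of the 32 members, DR over WT, on the scale of log2 (CPM + 0.5), ordered by value and coloured by class, with bars for the 95% read-counting interval. FADS2 (1.13) lies beyond the dashed line at 1, PMVK (-0.98) lies next to the line at -1, and 28 of the 32 values lie within 0.5 of 0.

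The early mevalonate steps turn acetyl-CoA into farnesyl diphosphate. Of their 7 genes, 6 (85.7%, against 68.4% of all genes) differed by less than 0.5 on the log2 scale. The median was -0.05, and PMVK stood apart. PMVK encodes phosphomevalonate kinase, which adds the second phosphate of the route. It had 2713 reads and 48.8 CPM in the DR-labelled library and 3375 reads and 96.8 CPM in the WT-labelled library. The log2 fold change was -0.98 (95% interval -1.05 to -0.91), at percentile 4.29 of all genes. The steps on either side did not share this difference. MVK, the kinase acting just before it, had 22.5 and 24.6 CPM in the libraries labelled DR and WT, with a log2 fold change of -0.13 (-0.25 to -0.00). MVD, the decarboxylase acting just after it, had 38.8 and 34.9 CPM, with a log2 fold change of 0.15 (0.05 to 0.25). Per length, MVK stood at 0.276 of PMVK in the DR-labelled library and 0.152 of it in the WT-labelled library.

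The PMVK promoter is shown because PMVK is the member that lay lowest. The stretch covers the 120 bases before its start on chromosome 1, minus strand of GRCh38.p14 (chr1:154936720-154936839), in the RefSeq promoter table. Capitals mark GGGCGG, the GC box.
PMVK: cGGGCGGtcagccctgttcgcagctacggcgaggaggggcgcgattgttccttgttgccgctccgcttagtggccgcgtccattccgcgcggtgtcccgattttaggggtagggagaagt

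Among the other early genes, HMGCS1, the cytosolic synthase of HMG-CoA, had 58.9 CPM in the DR-labelled library and 57.5 CPM in the WT-labelled library, a log2 fold change of 0.03 (-0.05 to 0.11). ACAT2, the cytosolic thiolase that opens the route, had 46.5 and 44.0 CPM. This gave a log2 fold change of 0.08 (-0.01 to 0.17). Both intervals span 0, so that no difference was detectable for the first 2 enzymes at this depth. ACAT2 overlaps TCP1 and SOD2 in the RefSeq gene table, MVK overlaps MMAB, IDI1 overlaps WDR37, SREBF1 overlaps RAI1 and NR1H3 overlaps ACP2. Reads from the shared stretches cannot be told apart where the counting did not use strand, which is not stated. IDI1, the isomerase of isopentenyl diphosphate, was lower in the DR-labelled library, at 59.1 against 76.9 CPM. This is a log2 fold change of -0.38 (-0.45 to -0.31). FDPS, the synthase of farnesyl diphosphate, was the most abundant of all 32 members per length, with 334.0 TPM in the DR-labelled library and 350.5 TPM in the WT-labelled library. It held 21.6% and 21.3% of the summed TPM of the 17 sterol synthesis genes. FDPS has 10 pseudogenes in the RefSeq table, IDI1 and CYP51A1 have 3 each, HSD17B7 has 2 and SCD has 1, and their values are uncertain to the extent that reads of such copies were shared.

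The committed sterol steps lead from farnesyl diphosphate through squalene and lanosterol to cholesterol. Of their 10 genes, 0 passed 2-fold, against 11.6% of all genes, and 1 (10.0%) passed 0.5 on the log2 scale, against 31.6%. The median was -0.00. The first 2 enzymes were lower in the DR-labelled library. FDFT1, squalene synthase, had 194.8 CPM there and 219.8 CPM in the WT-labelled library, a log2 fold change of -0.17 (-0.22 to -0.13). SQLE, squalene monooxygenase, a flux-controlling step of the route, had 74.6 and 92.7 CPM, a log2 fold change of -0.31 (-0.38 to -0.24). The next enzyme went the other way. LSS, which closes the ring to lanosterol, had 120.5 CPM in the DR-labelled library and 93.1 CPM in the WT-labelled library, a log2 fold change of 0.37 (0.31 to 0.43). Per length, LSS stood at 1.15 times SQLE in the DR-labelled library and at 0.714 of it in the WT-labelled library. The order of the 2 genes thus turned round on this scale only, which rests on the deposited gene lengths. In CPM, LSS lay above SQLE in both libraries.

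After lanosterol the differences were smaller for most genes. CYP51A1, the demethylase of lanosterol, had 119.4 and 113.3 CPM in the libraries labelled DR and WT (log2 fold change 0.08, 0.02 to 0.13). TM7SF2, a sterol reductase of these steps, had the largest value of the class, with 40.6 CPM in the DR-labelled library and 27.8 CPM in the WT-labelled library. Its log2 fold change was 0.54 (0.43 to 0.64), at percentile 83.6 of all genes. NSDHL and HSD17B7, which act together in removing methyl groups, had log2 fold changes of -0.04 each, and both intervals span 0. EBP, the sterol isomerase, had 99.3 and 96.6 CPM, and its interval of -0.02 to 0.10 also spans 0. SC5D, the desaturase near the end of the route, was the least abundant sterol gene per length, at 5.95 and 7.91 TPM. It was lower in the DR-labelled library, with a log2 fold change of -0.38 (-0.51 to -0.25). DHCR7, the reductase of the last step of 1 branch, had 214.7 CPM in the DR-labelled library and 186.6 CPM in the WT-labelled library, a log2 fold change of 0.20 (0.16 to 0.25).

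Over the 17 sterol synthesis genes, 5 intervals lay above 0 (29.4%, against 35.8% of all genes). Below 0 were 7 (41.2%, against 34.6%), and 5 spanned it (29.4%, against 29.6%). The median log2 fold change was -0.04, with quartiles of -0.17 and 0.08, against quartiles of -0.28 and 0.34 for all genes. Their summed level was 1545 TPM in the DR-labelled library and 1648 TPM in the WT-labelled library, a ratio of 0.937. PMVK was the gene with the widest gap in this sum, at 88.1 TPM in the DR-labelled library and 176.9 TPM in the WT-labelled library, or 5.71% and 10.7% of it. The other abundant genes kept their shares more closely. FDFT1 held 12.8% and 13.7%, EBP 12.1% and 11.1%, and DHCR7 11.6% and 9.59% in the libraries labelled DR and WT.

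**Figure D3:**
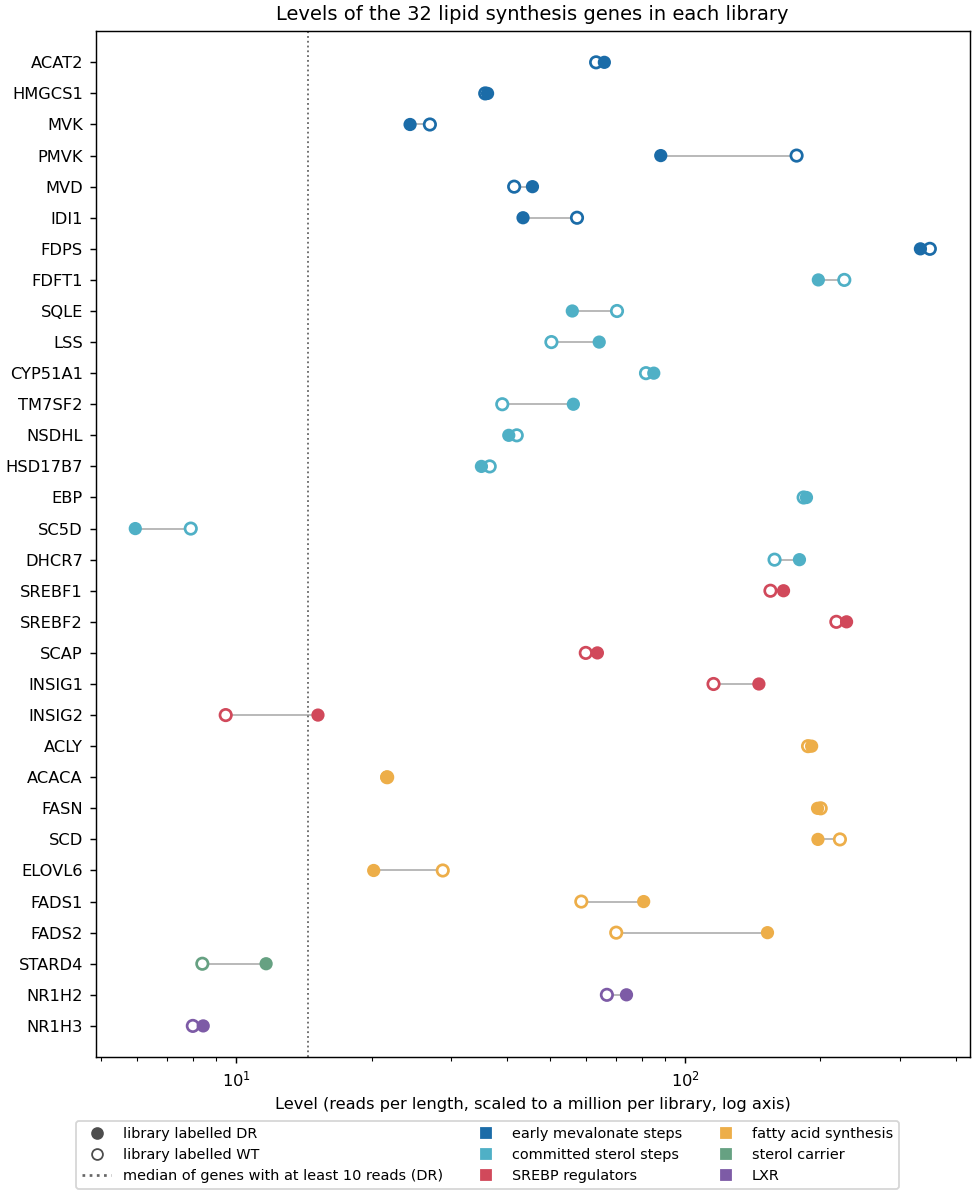
Levels of the 32 members per length in TPM on a log axis, with filled points for the DR-labelled library and open points for the WT-labelled library, coloured by class and listed in pathway order. FDPS lies highest in both libraries and SC5D lowest, and the widest gaps between the paired points are those of FADS2 and PMVK, in opposite directions.

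The 5 regulators of the SREBP system had log2 fold changes from 0.09 to 0.68, with intervals above 0, as had 35.8% of all genes from read counting alone. The factors themselves differed little. SREBF2, the SREBP gene most tied to sterol synthesis, had 503.3 CPM in the DR-labelled library and 471.7 CPM in the WT-labelled library, a log2 fold change of 0.09 (0.07 to 0.12). SREBF1, the SREBP gene most tied to fatty acid synthesis, had 319.2 and 294.8 CPM, a log2 fold change of 0.11 (0.08 to 0.15). The balance of the pair was the same to within a few percent, at 1.38 SREBF2 to SREBF1 per length in the DR-labelled library and 1.40 in the WT-labelled library. SCAP, their escort, had 117.6 and 109.4 CPM, a log2 fold change of 0.10 (0.05 to 0.16). Scaling by library totals moved SREBF1 and SREBF2 outside these intervals, so that the size of such small values depends on the scaling.

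The retention factors differed more. INSIG1, itself a target of the SREBP factors, had 197.9 CPM in the DR-labelled library and 154.9 CPM in the WT-labelled library. The log2 fold change was 0.35 (0.31 to 0.40). INSIG2, which is known to be less dependent on SREBP, had 18.1 and 11.1 CPM from 1005 and 388 reads, a log2 fold change of 0.68 (0.51 to 0.84). INSIG1 remained the more abundant of the pair, at 9.60 times INSIG2 per length in the DR-labelled library and 12.2 times in the WT-labelled library. STARD4, a soluble carrier of cholesterol, had 20.8 and 14.8 CPM, a log2 fold change of 0.47 (0.33 to 0.62).

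SREBP factors are known to bind both sterol regulatory elements and E-boxes. Stretches are shown for 4 of the 5 members whose promoters hold such letters, namely the regulators SREBF2, INSIG1 and SCAP and, as an example of an enzyme, SC5D. LSS holds CACGTG too and is not printed, and SREBF1 and INSIG2 hold neither. The search covered TCACNCCAC, the core of a sterol regulatory element, CACGTG, the E-box, CCAAT, the box of factor NF-Y, and GGGCGG, on both strands. Each window ran from 250 bases before to 50 bases after a gene's start in RefSeq, GRCh38.p14. The stretches of 50 bases below lie before the start, on the gene's strand, at chr22:41832965-41833014 (plus strand) for SREBF2, chr7:155297801-155297850 (plus) for INSIG1, chr3:47475972-47476021 (minus) for SCAP and chr11:121292618-121292667 (plus) for SC5D. Capitals mark TCACNCCAC and the reverse of CCAAT in SREBF2, CACGTG in the other 3, and GGGCGG in SCAP.
SREBF2: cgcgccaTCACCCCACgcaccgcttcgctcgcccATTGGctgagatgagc
INSIG1: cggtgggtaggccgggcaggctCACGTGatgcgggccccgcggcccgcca
SCAP: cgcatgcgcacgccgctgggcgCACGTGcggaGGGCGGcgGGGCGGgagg
SC5D: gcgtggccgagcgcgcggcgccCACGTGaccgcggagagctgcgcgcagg

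Of the 32 members, 28 had an entry in the promoter table, and ACAT2, FDFT1, SQLE and FASN were not analysed here in this respect. TCACNCCAC was found for 1 of 28 members (SREBF2), against 1.55% of the 12803 genes with at least 10 reads and an entry. CACGTG was found for 4 of 28 (INSIG1, LSS, SC5D and SCAP; 14.3%, against 11.8%). CCAAT was found for 20 of 28 (71.4%, against 42.5%), among them 12 of 14 sterol synthesis genes and 4 of 6 fatty acid genes. GGGCGG was found for 27 of 28 (96.4%, against 71.9%). Members had 41 starts in the table, and counted by start the shares were 58.5% for CCAAT, against 34.2% of the starts of all these genes, and 85.4% for GGGCGG, against 61.2%. Over all 35116 starts of the table they were 34.6% for CCAAT, 45.0% for GGGCGG, 7.26% for CACGTG and 1.13% for TCACNCCAC. A match describes these letters in this window and is not a binding site. The 4 members with CACGTG had log2 fold changes of 0.35 (INSIG1), 0.37 (LSS), -0.38 (SC5D) and 0.10 (SCAP), in both directions.

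In fatty acid synthesis the values of the enzymes that make the chain lay between -0.01 and 0.04 on the log2 scale, and those of the desaturases of polyunsaturated chains, FADS2 and FADS1, were the highest of the class. ACLY, which cleaves citrate to acetyl-CoA in the cytosol, had 374.1 CPM in the DR-labelled library and 362.8 CPM in the WT-labelled library, a log2 fold change of 0.04 (0.01 to 0.08). ACACA, which makes malonyl-CoA, had 94.1 and 93.1 CPM, and its interval of -0.05 to 0.08 spans 0. FASN, the synthase of palmitate, had 748.4 and 751.3 CPM from 41580 and 26190 reads, the most reads of any member. Its log2 fold change was -0.01 (-0.03 to 0.02), so that a difference of over 0.03 in size would have lain outside the interval. With library totals the value was 0.03, and so its sign was not fixed. SCD, which makes monounsaturated chains, had 483.9 and 535.0 CPM, a log2 fold change of -0.14 (-0.17 to -0.12). ELOVL6, which lengthens palmitate, was lower in the DR-labelled library, at 27.0 against 38.0 CPM. On the log2 scale the difference was -0.49 (-0.59 to -0.38).

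FADS2 had 212.5 CPM in the DR-labelled library and 96.6 CPM in the WT-labelled library, from 11805 and 3367 reads. It encodes the desaturase that opens the route to arachidonic and eicosapentaenoic acid. The log2 fold change was 1.13 (1.08 to 1.19), at percentile 93.9 of all genes. FADS1, the next desaturase of that route and its neighbour on the chromosome, was higher in the same library, with 159.3 against 114.3 CPM. On the log2 scale this was 0.48 (0.42 to 0.53). FADS2 thus stood at 1.89 times FADS1 per length in the DR-labelled library and at 1.20 times in the WT-labelled library. Within the summed level of the 7 fatty acid genes, FADS2 took 17.7% in the DR-labelled library and 8.90% in the WT-labelled library, while SCD took 22.9% and 28.0%. The FADS genes overlap in the RefSeq gene table and both have fractional counts, so that reads may have been shared between them.

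The FADS2 promoter is shown because FADS2 is the only member past 2-fold. The stretch covers the 120 bases before its second listed start, at chr11:61816284-61816403 on the plus strand of GRCh38.p14, and none of the 4 motifs was found in these letters, while CCAAT and GGGCGG were found elsewhere in the windows of its 2 listed starts.
FADS2: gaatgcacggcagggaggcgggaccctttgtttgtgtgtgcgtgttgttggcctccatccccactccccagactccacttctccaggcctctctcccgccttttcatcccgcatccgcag

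Over the 7 fatty acid genes, 3 intervals lay above 0 (42.9%, against 35.8% of all genes). Below 0 were 2 (28.6%, against 34.6%), and 2 spanned it (28.6%, against 29.6%). The median log2 fold change was 0.01. The summed level was 860.6 TPM in the DR-labelled library and 788.2 TPM in the WT-labelled library. The medians of the sterol genes (-0.04), the fatty acid genes (0.01) and the SREBP regulators (0.11) lay close together, and with 1 library per condition the difference between these classes was not tested.

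Both LXR genes were read in both libraries. NR1H2, the broadly expressed receptor, had 68.2 CPM in the DR-labelled library and 60.9 CPM in the WT-labelled library, a log2 fold change of 0.16 (0.09 to 0.24). NR1H3, the receptor best known from liver, fat and macrophages, had 4.63 and 4.33 CPM from 257 and 151 reads, the fewest of any member. Its log2 fold change was 0.09 (-0.18 to 0.35), the widest interval among the members, and as it spans 0 no difference was detectable at this depth. NR1H2 stood at 8.77 times NR1H3 per length in the DR-labelled library and 8.36 times in the WT-labelled library. In the order of all 32 levels, NR1H3, STARD4, SC5D and INSIG2 formed the low end in both libraries, at 5.95 to 15.2 TPM in the DR-labelled library and 7.91 to 9.46 TPM in the WT-labelled library, around or below the median of all genes (14.4 and 14.5 TPM). The other 28 members lay above that median in both. Of all members, 11 lay in the top 10% of genes by TPM in each library.

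Further genes around these routes were counted from lists of 73 genes, of which 70 had at least 10 reads. Of the 70, 7 (10.0%) passed 2-fold, against 11.6% of all genes, with 5 above and 2 below in the DR-labelled library, and 25 (35.7%) passed 0.5 on the log2 scale, against 31.6%. Of the 25, 13 were higher and 12 lower in the DR-labelled library. Among 13 genes of chain elongation and desaturation, 3 were higher and 1 was lower past 0.5, against 17.7% and 13.9% of all genes. Past 2-fold was 1 gene (7.69%), against 11.6%. This was ELOVL4, the elongase of very long chains, with 573 reads in the DR-labelled library and 5 in the WT-labelled library, a log2 fold change of 4.07 (3.68 to 4.31). Its value depended on the pseudocount and was 1.57 with 5 CPM and 5.42 with 0.1 CPM. Both lie outside that interval, which holds the pseudocount at 0.5 CPM. The genes named from here to the end are those past 2-fold, apart from ELOVL5, MBTPS1, DGAT1, DGAT2 and LPIN1, which were chosen after their values were seen. Other genes of these lists passed 0.5 in either direction and are not named. They include differences larger than those 5, such as -0.93 among the genes of acetyl-CoA, NADPH and acyl-CoA supply. ELOVL5, the elongase that acts between the FADS2 and FADS1 steps, had 102.5 and 66.8 CPM, a log2 fold change of 0.61 (0.54 to 0.68). Among 13 genes listed around the supply of acetyl-CoA, NADPH and acyl-CoA, the median log2 fold change was -0.22. Their intervals lay below 0 for 8 and above 0 for 4, against 34.6% and 35.8% of all genes. Past 0.5 on the log2 scale, 4 were lower and 2 higher, against 13.9% and 17.7% of all genes. Past 2-fold was 1 gene (7.69%), against 11.6%. This was ACACB, the carboxylase at mitochondria that restrains fat burning, with 31.4 CPM in the DR-labelled library and 11.4 CPM in the WT-labelled library, a log2 fold change of 1.42 (1.26 to 1.57).

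Among 13 genes of SREBP processing and sterol sensing, 9 intervals lay below 0 and 4 above, against 34.6% and 35.8% of all genes. Past 0.5 on the log2 scale, 4 were lower and 1 was higher, against 13.9% and 17.7% of all genes. Only PGRMC1 passed 2-fold, 1 of 13 (7.69%), against 11.6% of all genes. PGRMC1, a sterol-binding haem protein of the endoplasmic reticulum, had 36.6 CPM in the DR-labelled library and 131.4 CPM in the WT-labelled library, a log2 fold change of -1.83 (-1.90 to -1.75). MBTPS1, the protease that first cuts the SREBP factors, had 91.2 and 153.4 CPM, a log2 fold change of -0.75 (-0.80 to -0.69). Among 9 genes of the isoprenoid branches, 1 (11.1%) passed 2-fold, against 11.6% of all genes. This was FNTB, a subunit of protein farnesyltransferase, with 2.23 and 5.62 CPM (-1.16, -1.45 to -0.88). Of the 9 values 7 lay below 0, against 7933 of 16210 for all genes, and 2 of the 9 intervals spanned 0, against 29.6% of all genes.

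The lists of sterol use held the remaining calls, at 1 of 6 genes (16.7%) and 2 of 10 (20.0%), against 11.6% of all genes. Of 6 genes of LXR partners and targets with at least 10 reads, ABCG1, a sterol exporter that LXR switches on, had 22.3 CPM in the DR-labelled library and 10.9 CPM in the WT-labelled library. Its log2 fold change was 1.01 (0.84 to 1.17), at the threshold, and it was 0.78 with a pseudocount of 5 CPM. Of 10 genes of sterol storage and trafficking, SOAT2, which esterifies cholesterol, had 135 and 14 reads (1.70, 1.27 to 2.07), and VLDLR, a lipoprotein receptor, had 201 and 50 reads (1.09, 0.73 to 1.44). Both lay under 4 CPM in each library, and with a pseudocount of 5 CPM their values were 0.46 and 0.42 and that of FNTB -0.55, all under the threshold. With a pseudocount of 0.1 CPM the values of SOAT2, VLDLR and FNTB were 2.33, 1.28 and -1.30. Their intervals therefore hold for the pseudocount of 0.5 CPM only. Of 6 genes of glycerolipid synthesis, 0 passed 2-fold, against 11.6% of all genes. Past 0.5 on the log2 scale, 3 were higher and 0 lower, against 17.7% and 13.9% of all genes. The list did not go one way, since 1 interval lay below 0, at a log2 fold change of -0.45, and 2 spanned it. DGAT1 and DGAT2, which finish triglycerides, had log2 fold changes of 0.70 (0.58 to 0.81) and 0.58 (0.47 to 0.70), and LPIN1, a phosphatidate phosphatase, had 286.6 and 201.6 CPM (0.51, 0.47 to 0.55).

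**Figure D4:**
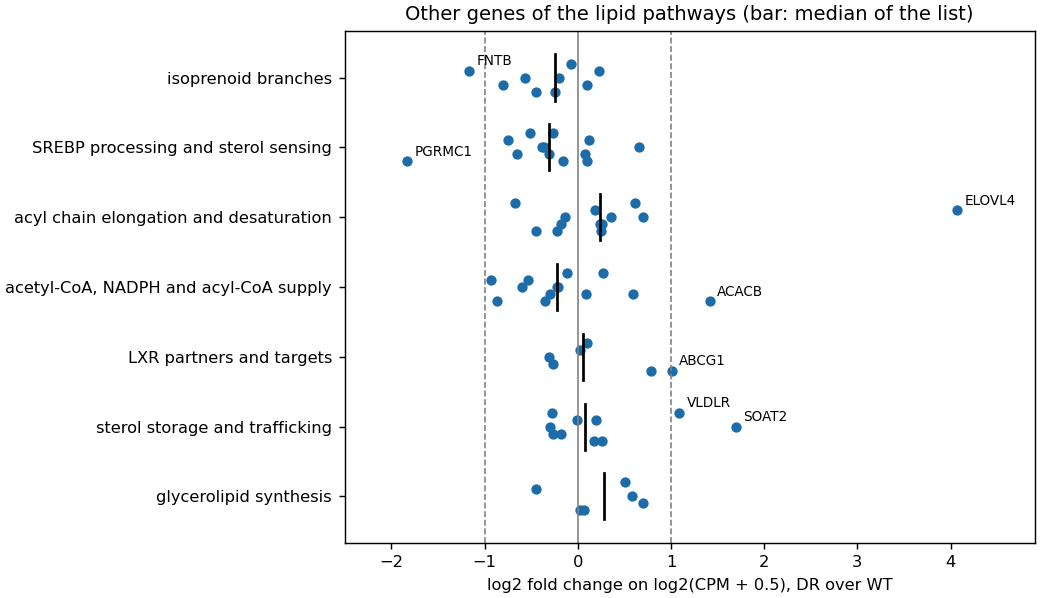
Each point is 1 of the 70 further genes with at least 10 reads, placed by its log2 fold change, DR over WT, in the row of its list, with a bar at the median of the list and dashed lines at 2-fold. The 7 named genes lie past 2-fold, with ELOVL4 at 4.07 and PGRMC1 at -1.83 farthest out on either side.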

How the data were processed

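Total RNA of the 2 libraries (labelled DR and WT, 1 each) was sequenced by the authors, who deposited 1 table of estimated counts per gene, without scaling, and gene lengths. The submitters' processing notes name Bowtie 0.12.2 and hg19. The counting tool and annotation are not given in the sources used here. The table also holds the authors' own log2 ratio, p-value, q-value and direction, which were not used. Of 18930 genes, 663 had no count. Estimated counts were rounded. The estimated reads summed to 54878355 and 35294670 in the libraries labelled DR and WT. After the TMM scaling given next, 3 reads were worth 0.054 and 0.0861 CPM. Sizes were scaled by TMM (factors 1.01 and 0.988; R 4.3.3, edgeR 4.0.16), 2057 genes with fewer than 10 reads were left out, and a pseudocount of 0.5 CPM was added. With 1 library per group no replicate test could be fitted, so that genes were called by size (at least 1 on the log2 scale), with no p-value. Intervals (95%, Clopper-Pearson, Python 3.11.15, SciPy 1.17.1) cover the counting error of independent reads only. Reads without molecular identifiers are not independent molecules, so that the intervals may be too narrow even for counting error. A run on simulated independent reads, with almost no pseudocount, could not test this or the printed scale. TPM used the table's gene lengths. Gene IDs of 17944 genes with counts matched RefSeq (GRCh38.p14), which served for names, neighbours and promoters only. By rule all members are named, and further pathway genes where past 2-fold. The exceptions are stated beside their values. The members and lists were chosen with earlier results of these data known. Alternatives were DESeq2 1.42.0 size factors, library totals, other pseudocounts, filters and thresholds.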

Additional observations from a re-analysis of the deposited data

How the results depend on the processing

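No paired analysis was possible because each condition has a single library (n = 1), and for the same reason no replicate could be left out. FADS2 was the only member past 2-fold with every scaling, pseudocount and read filter tried, at log2 fold changes from 1.10 to 1.17, and PMVK stayed between -0.99 and -0.92. A pseudocount of 5 CPM moved the calls over all genes to 423 higher and 333 lower, since it shrinks low genes. Together these were 4.66% of all genes, against 1 of 32 members. A threshold of 0.5 moved the calls over all genes to 2873 and 2254 (31.6% together), and those of the members to 3 and 1. Of the alternatives chosen after seeing the data, a mean of at least 4 CPM left 664 genes higher, since fewer genes were tested. Leaving out genes with fractional counts left 709 higher and 358 lower among 7508 genes. It left 0 of the 16 remaining members past 2-fold, since FADS2 has fractional counts, and it moved the median of the fatty acid genes to -0.14. Library totals added up to 0.04 to the members' values and moved 5 of the 32 outside their counting intervals (SREBF1, SREBF2, ACLY, FASN and SCD), with a change of sign for FASN (0.03). The other scaling and pseudocount alternatives moved 0 of them outside. The spread between cultures cannot be had from these data.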
